A study of Homo sapiens with 8 samples.

Results

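Matrix metalloproteinases (MMPs), tissue inhibitors of metalloproteinases (TIMPs) and ADAMTS proteases were examined in hIECs, cells that were differentiated toward intestinal epithelium from human embryonic stem cells of the established line H9. The 46 genes were all protein-coding rows whose symbol is MMP, TIMP or ADAMTS followed by a number, of 60558 genes and 19957 protein-coding genes in all. They comprised 23 MMPs, 4 TIMPs and 19 ADAMTS genes. One further symbol fitted the pattern, MMP23A, but it is annotated as a pseudogene and was left out. RNA-seq covered 4 groups with 2 libraries each, namely normal hIECs (labelled NT), normal hIECs with PM10 (PM10), inflamed hIECs (IT) and inflamed hIECs with PM10 (IT-PM10). All came from the same cell line. Inflamed hIECs were those cultured for 10 days with the cytokines IFNγ and TNFα, at 50 ng/ml each. PM10, a preparation of inhalable airborne particles, was present in the medium over the final 7 of these days, at a concentration of 100 μg/ml. The labels state a treatment of 10 days for every library and do not say whether the libraries of a group came from separate cultures, so the p-values measure only the spread between these libraries.

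MMPs are zinc-dependent proteases that are made as inactive proenzymes and, once activated, cleave collagens, gelatin, laminins and other matrix proteins. TIMPs bind active MMPs and block them, and TIMP3 also blocks several ADAM and ADAMTS proteases. ADAMTS proteases are secreted and cleave proteoglycans such as aggrecan and versican, trim procollagens, or act on single substrates such as von Willebrand factor. In the intestine, MMPs made by stromal, epithelial and immune cells are known for their part in tissue turnover and in the mucosal injury of inflammatory bowel disease.

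The values were FPKM, which are scaled for transcript length and for the mapped fragments of a library, so levels can be compared between genes. No read counts were used and the read depth is unknown. The lowest value above 0 in a library lay between 0.164 and 0.228 FPKM, and weaker genes are listed at 0. Of the 46 genes, 28 reached 1 FPKM in at least 2 libraries and were tested (13 MMPs, 3 TIMPs and 12 ADAMTS genes). Another 7 were above 0 in some library but were not tested, and 11 were listed at 0 in every library. Among the tested genes, MMP8, MMP19 and ADAMTS4 reached the minimum in libraries with cytokines alone, and MMP15, ADAMTS13 and ADAMTS15 in libraries without cytokines alone, so these 6 had to differ between them. Differences are given between group means on the log2(FPKM + 1) scale, with the SE and the Benjamini-Hochberg adjusted p of limma over 14206 genes. A gene was called at an adjusted p under 0.05, and counted as past 2-fold when the difference was also at least 1.

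The labelled cell type was compared with marker genes. Of 10 intestinal markers, 8 were listed at 0 in all libraries, among them CDX2, VIL1, MUC2 and LYZ. LGR5, the stem cell marker and the only intestinal one tested, was at 2.01 to 2.63 FPKM without cytokines, 5.68 and 5.26 in inflamed hIECs and 8.28 and 7.92 with both. It rose under cytokines (0.97 ± 0.10, adjusted p = 0.000130) and with PM10 in inflamed hIECs (0.49 ± 0.10, adjusted p = 0.0172). The intestinal sum was 2.01 to 2.63 in normal hIECs, 2.33 to 2.59 with PM10, 5.26 to 5.99 in inflamed hIECs and 8.16 to 8.28 with both. Of 8 epithelial markers, KRT8 and KRT18 were between 100.1 and 383 FPKM, while EPCAM was at most 0.622, CDH1 was above 0 in 1 library and CLDN7 and ESRP1 were listed at 0. All 10 mesenchymal markers were tested, with VIM between 718 and 973 FPKM and COL1A1 between 408 and 681. The data therefore go against an epithelial label at the RNA level, and "hIECs" is used below as the name of the samples. The summed FPKM of the epithelial markers was 641 to 652 in normal hIECs, 598 to 636 with PM10, 347 to 352 in inflamed hIECs and 287 to 305 with cytokines and PM10. The mesenchymal sum was 3510 to 3616, 3216 to 3219, 3432 to 3469 and 2709 to 2749 in the same order. Of 6 endothelial markers, PECAM1, CDH5, VWF and KDR were listed at 0 and TEK was at most 0.486 FPKM, so the sum, 24.3 to 29.3, 16.2 to 17.02, 6.37 to 6.73 and 3.06 to 3.18 in the same order, was nearly EMCN alone. The neural sum (7 genes, 3 at 0) was 180 to 187, 196 to 203, 106 to 107 and 123 to 125. The part of these shifts in the results below was not tested. Of 8 macrophage and leukocyte markers, CD14, CD163, CSF1R, ITGAM and TYROBP were listed at 0 in all libraries, and the sum of the list was at most 3.87 FPKM. In bulk samples, fewer cells of a type and less RNA per cell cannot be told apart.

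A cluster on chromosome 11 holds 9 of the MMP genes, which are the only protein-coding genes between positions 102520508 and 102955732 (GRCh38, all on the minus strand). Only 4 of them, MMP8, MMP10, MMP1 and MMP13, were detected, and each had its highest values in inflamed hIECs with PM10, whereas MMP7, MMP20, MMP27, MMP3 and MMP12 were listed at 0 throughout. Promoter sequences are shown for 3 genes of this cluster, since detected and undetected genes lie side by side there, and for TIMP1, the most abundant inhibitor. They come from RefSeq (GRCh38.p14), are written 5′ to 3′ on the strand of the gene and cover up to 250 bases before the transcript start. Bases exonic in any annotated transcript are left off the 3′ end. Capitals mark the AP-1 motif TGANTCA, the TATA box TATAAA and the core of the aryl hydrocarbon receptor element GCGTG.
MMP10 (chr11:102780629-102780878, minus strand, 26.8 to 49.6 FPKM with cytokines): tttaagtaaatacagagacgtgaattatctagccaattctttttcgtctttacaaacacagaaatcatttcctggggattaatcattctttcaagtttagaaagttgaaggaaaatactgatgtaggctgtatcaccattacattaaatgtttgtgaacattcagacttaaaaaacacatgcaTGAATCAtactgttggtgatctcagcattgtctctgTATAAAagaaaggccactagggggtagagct
MMP8 (chr11:102725004-102725204, minus strand, above 0 with cytokines alone): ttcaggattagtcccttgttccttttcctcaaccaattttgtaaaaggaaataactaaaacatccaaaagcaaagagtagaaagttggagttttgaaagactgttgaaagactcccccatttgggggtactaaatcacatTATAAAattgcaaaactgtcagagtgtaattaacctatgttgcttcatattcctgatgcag
MMP7 (chr11:102530751-102530997, minus strand, listed at 0): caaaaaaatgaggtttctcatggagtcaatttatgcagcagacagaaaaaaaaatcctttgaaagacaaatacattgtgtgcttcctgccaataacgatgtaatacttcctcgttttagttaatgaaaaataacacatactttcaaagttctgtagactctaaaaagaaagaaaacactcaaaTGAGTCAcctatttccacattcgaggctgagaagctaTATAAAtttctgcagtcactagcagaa
TIMP1 (chrX:47582186-47582407, plus strand): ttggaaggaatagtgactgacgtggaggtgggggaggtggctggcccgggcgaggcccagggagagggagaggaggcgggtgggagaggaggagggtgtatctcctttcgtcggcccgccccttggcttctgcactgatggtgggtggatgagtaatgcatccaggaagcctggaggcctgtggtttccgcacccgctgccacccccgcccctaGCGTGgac
MMP10, a stromelysin, had the AP-1 motif from -67 to -61 and the TATA box from -31 to -26. MMP7, a matrilysin, had them at nearly the same places, from -67 to -61 and from -30 to -25. The AP-1 and TATA motifs at like distances thus stood before 1 gene that was detected in every library and 1 that was listed at 0. MMP8 had a TATA box from -110 to -105 and no AP-1 motif in this window, and TIMP1 had 1 receptor core from -36 to -32. The MMP8 window lies inside the annotated gene, whose 5′ end is at position 102727050, so the start used is not the outermost. Over all 35116 RefSeq promoters, searched on both strands in the same 250 bases, AP-1 was found in 6.573%, TATAAA in 10.716% and GCGTG in 32.216%. A promoter entry was found for 27 of the 46 genes. The 19 without one, among them MMP1, MMP2, MMP9, MMP13, MMP25, TIMP2, ADAMTS4 and ADAMTS15, were not searched for any motif. AP-1 was present for MMP7, MMP10, MMP20 and ADAMTS12, TATAAA for 7 genes and GCGTG for 8, and the letters TTCNNNGAA (GAS, found in 6.567% of promoters) for none. A loose ISRE pattern was found for none (3.021% of promoters) and a loose NF-kB pattern for 18 genes (54.425% of promoters). The marked motifs do not overlap one another in the sequences shown.

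**Figure D1:**
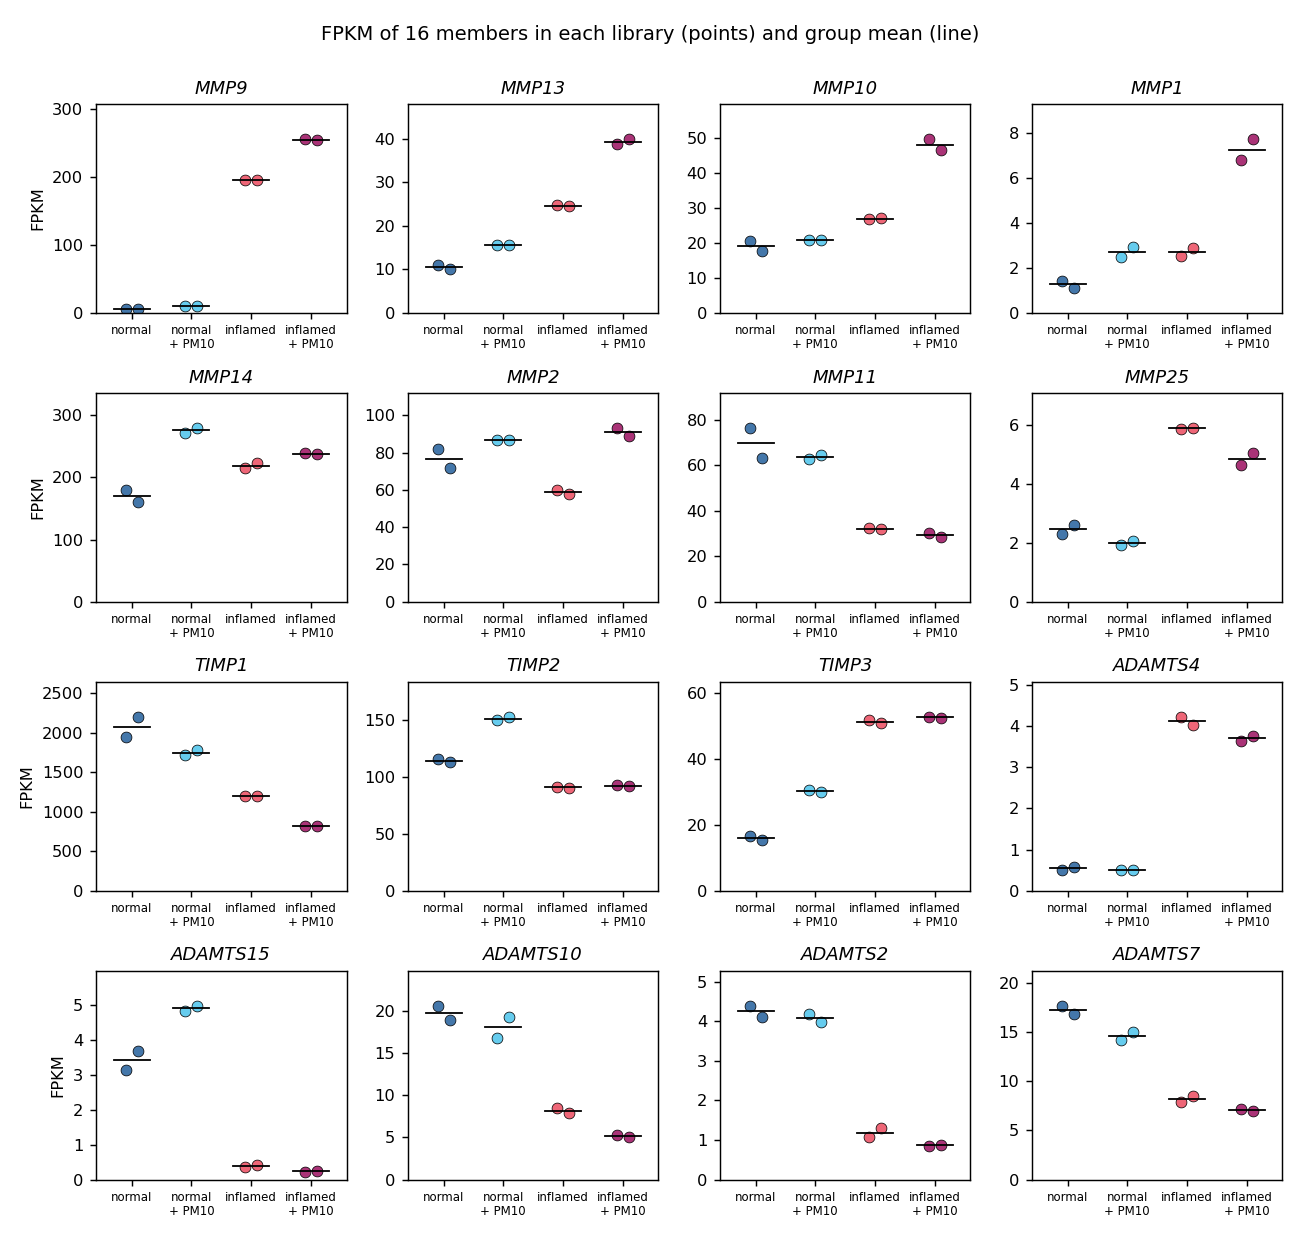
FPKM (vertical axes, linear and starting at 0) of 16 genes in each library (points, 2 a group) with the group mean (line). MMP9 lies between 5.39 and 10.3 FPKM without cytokines and between 195 and 256 with them, while TIMP1 goes from 1946 and 2201 in normal hIECs down to 820.5 and 823 in inflamed hIECs with PM10.

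Inflamed hIECs were compared with normal hIECs, first without PM10, to find which proteases and inhibitors differ under IFNγ and TNFα. Of the 28 genes tested, 11 rose and 11 fell, whereas 25.9% of all genes tested rose and 30.3% fell. The counts here and with PM10 include genes that had to differ. MMP8, MMP19 and ADAMTS4 reached 1 FPKM only in libraries with cytokines, and MMP15, ADAMTS13 and ADAMTS15 only in libraries without them. MMP9, ADAMTS4, TIMP3 and MMP13 rose past 2-fold (background 4.05%), and ADAMTS15, ADAMTS2, ADAMTS10, MMP11 and MMP15 fell past 2-fold (background 5.12%). The other genes that rose were MMP1, MMP8, MMP10, MMP14, MMP19, MMP25 and ADAMTS1, and the others that fell were MMP2, TIMP1, TIMP2, ADAMTS7, ADAMTS13 and ADAMTS16. Compared in the presence of PM10, which involves the other 4 libraries, 10 rose and 11 fell (background 25.8% and 39.6%). Past 2-fold, MMP1, MMP8, MMP9, MMP10, MMP13 and ADAMTS4 rose (background 5.28%), and TIMP1, MMP11, ADAMTS2, ADAMTS10 and ADAMTS15 fell (background 7.64%). In both comparisons 19 of the genes were called, 18 of them in the same direction, and of all genes tested 6936 were called in both and 6861 in the same direction. MMP14 was the member that went in opposite directions. The median difference was -0.08 over the 28 genes, against -0.03 over all genes tested, without PM10, and -0.08 against -0.11 with PM10. By family, the medians without PM10 were 0.49 for MMPs, -0.33 for TIMPs and -0.29 for ADAMTS genes.

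**Figure D2:**
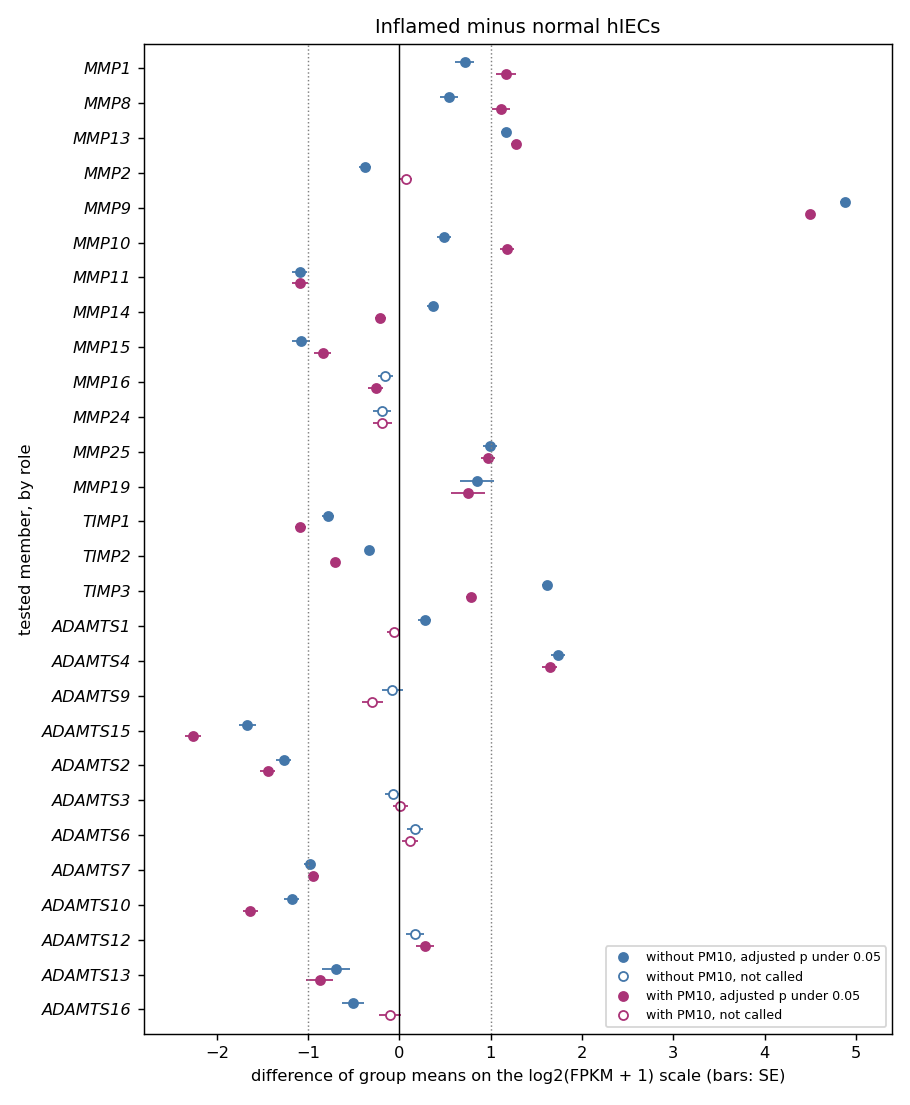
Difference between inflamed and normal hIECs on the log2(FPKM + 1) scale (horizontal axis) for the 28 tested genes, without PM10 (blue) and with PM10 (purple). Bars are the SE, filled points are called at an adjusted p under 0.05 and dotted lines mark a difference of 1 either way. MMP9 stands at 4.88 and 4.50, and the lowest point is ADAMTS15 with PM10, at -2.26.

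MMP9, the inducible gelatinase, had the largest difference of the members. It was at 5.95 and 5.39 FPKM in normal hIECs, 10.3 and 10.3 with PM10, 195 and 196 in inflamed hIECs and 256 and 254 in inflamed hIECs with PM10. No library with cytokines overlapped one without. The difference was 4.88 ± 0.05 (SE, limma adjusted p = 3.29e-09) without PM10 and 4.50 ± 0.05 (adjusted p = 2.60e-09) with it. MMP9 made up 1.54% to 2.16% of the summed MMP FPKM without cytokines and 34.1% to 35.5% with them. The antisense gene SLC12A5-AS1 covers 18.4% of the exonic bases of MMP9, and libraries without strand information cannot separate reads from the overlap. MMP2, the other gelatinase, went the other way, at 81.8 and 71.9 FPKM in normal hIECs against 60.0 and 57.9 in inflamed hIECs (-0.37 ± 0.07, adjusted p = 0.00222). In the presence of PM10, MMP2 was at 86.6 and 87.1 FPKM without cytokines and 93.2 and 89.1 with them, and the difference was not called (0.07 ± 0.07, adjusted p = 0.381).

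The interstitial collagenases MMP1, MMP8 and MMP13, which cut fibrillar collagen, all rose under cytokines. MMP13 was at 10.9 and 10.02 FPKM in normal hIECs, 15.6 and 15.7 with PM10, 24.8 and 24.5 in inflamed hIECs and 38.9 and 39.97 in inflamed hIECs with PM10. Each step in that order separated the libraries completely. The cytokine difference of MMP13 was 1.16 ± 0.06 without PM10 (adjusted p = 3.19e-06) and 1.28 ± 0.06 with it (adjusted p = 1.46e-06). MMP1 was lower, at 1.42 and 1.12 FPKM in normal hIECs, 2.46 and 2.91 with PM10, 2.54 and 2.89 in inflamed hIECs and 6.77 and 7.72 with both. Normal hIECs with PM10 and inflamed hIECs thus overlapped for MMP1, and both lay above normal hIECs. MMP1 rose by 0.71 ± 0.11 without PM10 (adjusted p = 0.00112) and by 1.16 ± 0.11 with it (adjusted p = 6.79e-05). MMP8, the collagenase best known from neutrophils, was listed at 0 in all 4 libraries without cytokines, so no fold is given. It was at 0.462 and 0.455 FPKM in inflamed hIECs (adjusted p = 0.00252) and at 1.23 and 1.08 in inflamed hIECs with PM10 (adjusted p = 5.15e-05).

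Among the stromelysins, MMP10 rose and MMP11 fell, and MMP3 was listed at 0. MMP10 was at 20.5 and 17.5 FPKM in normal hIECs, 20.7 and 20.7 with PM10, 26.8 and 27.1 in inflamed hIECs and 49.6 and 46.5 with both. The difference was 0.49 ± 0.07 without PM10 (adjusted p = 0.00111) and 1.18 ± 0.07 with it (adjusted p = 8.84e-06). MMP11, or stromelysin-3, is activated inside the cell and typical of stromal cells. It was at 76.4 and 63.2 FPKM in normal hIECs, 62.8 and 64.5 with PM10, 32.3 and 31.8 in inflamed hIECs and 30.2 and 28.7 with both. All libraries with cytokines were below all libraries without them, and the difference was -1.09 ± 0.08 in either comparison (adjusted p = 3.60e-05 without PM10 and 2.62e-05 with it).

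Of the membrane-type MMPs, MMP14 was the most abundant and the highest of all MMPs in all but the libraries with both treatments. MMP14 cleaves collagen at the cell surface and, together with TIMP2, activates proMMP2. It was at 179 and 160 FPKM in normal hIECs, 271 and 279 with PM10, 214 and 222 in inflamed hIECs and 239 and 237 in inflamed hIECs with PM10. The highest group was therefore normal hIECs with PM10. MMP14 rose under cytokines without PM10 (0.36 ± 0.06, adjusted p = 0.00147) and fell under cytokines in the presence of PM10 (-0.21 ± 0.06, adjusted p = 0.0154). The second call was lost when normal with PM10 replicate 2 or either library of inflamed hIECs with PM10 was left out, and over all alternatives the adjusted p ranged from 0.00154 to 0.0822. MMP25, which is anchored by a lipid, was at 2.31 and 2.61 FPKM in normal hIECs, 1.91 and 2.05 with PM10, 5.86 and 5.89 in inflamed hIECs and 4.65 and 5.05 with both, and rose by 0.99 ± 0.08 (adjusted p = 3.65e-05) and 0.97 ± 0.08 (adjusted p = 2.85e-05). The antisense gene MMP25-AS1 covers 30.6% of its exonic bases, and other genes share 22.1% of those of MMP24, 17.6% of MMP19 and 8.1% of MMP1. MMP15 was listed at 0 in all 4 libraries with cytokines, against 1.12 and 1.10 FPKM in normal hIECs (adjusted p = 6.45e-05) and 0.762 and 0.817 with PM10 (adjusted p = 0.000175). MMP16 (2.65 to 3.59 FPKM) and MMP24 (0.911 to 1.65 FPKM) were called in neither comparison, except MMP16 with PM10 (-0.26 ± 0.08, adjusted p = 0.0197), a call lost without any single library of the 4 compared (adjusted p over the alternatives 0.00979 to 0.0973). MMP19, which degrades basement membrane, was at 0 and 0.438 FPKM in normal hIECs, 0.299 and 0.265 with PM10, 1.13 and 1.18 in inflamed hIECs and 0.917 and 1.44 with both. It rose in both comparisons (adjusted p = 0.00644 and 0.00894), the second of which was lost without inflamed with PM10 replicate 2 (adjusted p over the alternatives 0.00130 to 0.0660).

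The inhibitors did not move together. TIMP1, the broadly acting secreted inhibitor, was the most abundant member by far, with 84.9% to 94.5% of the summed TIMP FPKM. It was at 1946 and 2201 FPKM in normal hIECs, 1715 and 1780 with PM10, 1205 and 1198 in inflamed hIECs and 823 and 820.5 with both. No group overlapped the next. TIMP1 fell under cytokines by 0.78 on the log2(FPKM + 1) scale (SE 0.06, adjusted p = 4.18e-05) and, where PM10 was present, fell by 1.09 (SE 0.06, adjusted p = 5.72e-06). TIMP2 was at 115 and 113 FPKM in normal hIECs, 149.8 and 153 with PM10, 91.4 and 89.96 in inflamed hIECs and 92.8 and 91.9 with both. It fell by 0.33 (SE 0.04, adjusted p = 0.000401) without PM10 and by 0.71 (SE 0.04, adjusted p = 5.99e-06) with it. TIMP3, which is bound to the matrix, rose, from 16.7 and 15.4 FPKM in normal hIECs and 30.4 and 29.9 with PM10 to 51.8 and 50.8 in inflamed hIECs and 52.7 and 52.5 with both. The differences were 1.62 ± 0.05 (adjusted p = 4.64e-07) and 0.78 ± 0.05 (adjusted p = 1.13e-05). TIMP4 stayed between 0.314 and 0.835 FPKM and was not tested. TIMP1 and TIMP3 lie within the synapsin genes SYN1 and SYN3 on the opposite strand, with no overlap of exons, whereas 9.5% of the exonic bases of TIMP2 are shared with other genes.

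**Figure D3:**
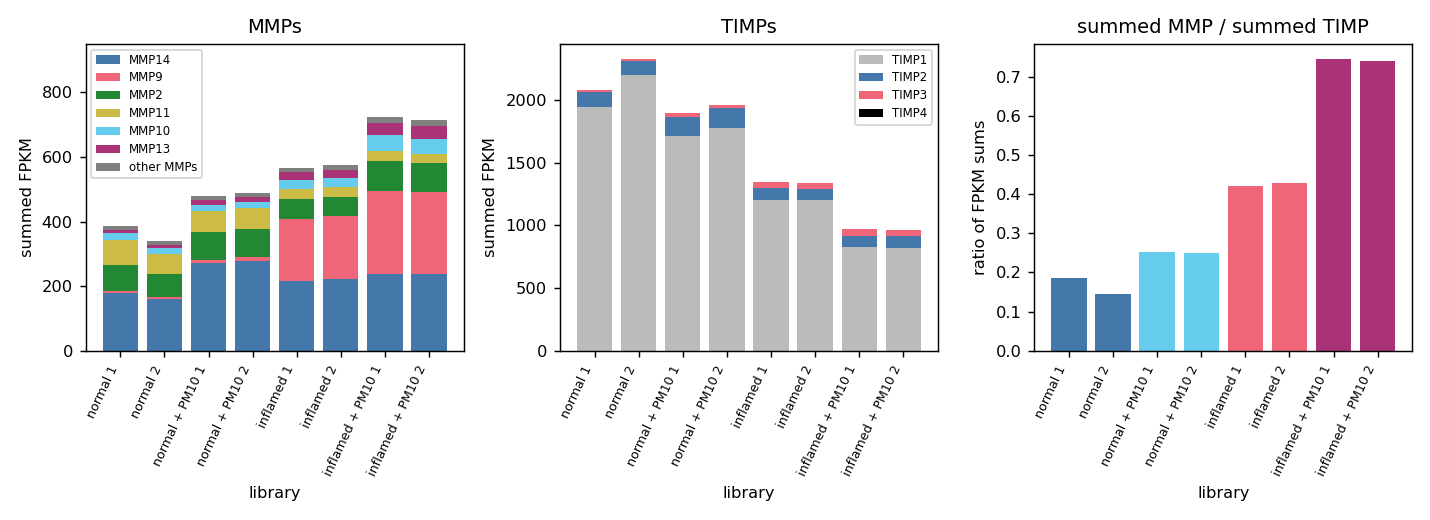
Summed FPKM of the MMPs (left, stacked by gene) and of the TIMPs (middle, stacked by gene), and the ratio of the sums (right), in each of 8 libraries. The MMP sum is lowest at 339 and 386 FPKM in normal hIECs and highest at 715 and 724 in inflamed hIECs with PM10, and the TIMP sum goes from 2078 and 2330 down to 965 and 969.

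The summed level of all MMPs was 386 and 339 FPKM in normal hIECs, 479 and 490 with PM10, 567 and 574 in inflamed hIECs and 724 and 715 with both. The TIMP sum was 2078 and 2330, 1896 and 1963, 1349 and 1339.5, and 969 and 965 FPKM in the same order. Their ratio was thus 0.186 and 0.146 in normal hIECs, 0.253 and 0.250 with PM10, 0.420 and 0.428 in inflamed hIECs and 0.747 and 0.741 with both, with no overlap between groups and TIMP RNA above MMP RNA in every library. The ratio is a description and was not tested. It rests on the most abundant genes, since without MMP14 and TIMP1 it was 1.56 and 1.39 in normal hIECs, 1.15 and 1.15 with PM10, 2.45 and 2.49 in inflamed hIECs and 3.32 and 3.30 with both. Then the order of normal hIECs with and without PM10 was the reverse. RNA levels of proenzymes and inhibitors do not measure protease activity.

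Among ADAMTS proteases that cleave aggrecan and versican, ADAMTS4 rose and ADAMTS15 fell. ADAMTS4, or aggrecanase-1, was at 0.494 and 0.584 FPKM in normal hIECs, 0.493 and 0.513 with PM10, 4.22 and 4.01 in inflamed hIECs and 3.64 and 3.77 with both. Its differences were 1.73 ± 0.08 (adjusted p = 2.39e-06) and 1.65 ± 0.08 (adjusted p = 2.38e-06). ADAMTS15 was at 3.14 and 3.69 FPKM in normal hIECs, 4.84 and 4.97 with PM10, 0.350 and 0.429 in inflamed hIECs and 0.220 and 0.245 with both, the last values close to the lowest a library holds. It fell by 1.67 (SE 0.09, adjusted p = 6.52e-06) and, with PM10, fell by 2.26 (SE 0.09, adjusted p = 1.00e-06). ADAMTS1 was at 3.18 and 3.00 FPKM in normal hIECs and 4.10 and 3.80 in inflamed hIECs (0.27 ± 0.07, adjusted p = 0.0112), a call lost without inflamed replicate 1 (adjusted p over the alternatives 0.00539 to 0.0743). In the presence of PM10 it was not called (-0.06 ± 0.07, adjusted p = 0.441). ADAMTS9, between 2.67 and 3.84 FPKM over the 8 libraries, was called in neither comparison. ADAMTS5, the other main aggrecanase, stayed below the minimum, between 0.612 and 0.931 FPKM.

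ADAMTS2, which removes the N-terminal propeptide of fibrillar procollagens, was at 4.39 and 4.11 FPKM in normal hIECs, 4.19 and 3.99 with PM10, 1.07 and 1.30 in inflamed hIECs and 0.861 and 0.882 with both. It fell by 1.27 (SE 0.08, adjusted p = 1.64e-05) and by 1.44 (SE 0.08, adjusted p = 5.83e-06), while ADAMTS3, of the same function, lay between 1.21 and 1.60 FPKM and was not called. ADAMTS10, which associates with fibrillin microfibrils, was the highest ADAMTS gene in normal hIECs, at 20.6 and 18.9 FPKM, followed by 16.8 and 19.3 with PM10, 8.48 and 7.84 in inflamed hIECs and 5.29 and 4.99 with both. Every library with cytokines was below every library without them, and the differences were -1.18 ± 0.08 (adjusted p = 2.10e-05) and -1.63 ± 0.08 (adjusted p = 3.04e-06). ADAMTS7, which cleaves cartilage oligomeric matrix protein, was at 17.6 and 16.8 FPKM in normal hIECs, 14.2 and 14.98 with PM10, 7.92 and 8.51 in inflamed hIECs and 7.17 and 6.99 with both (-0.99 ± 0.06, adjusted p = 1.22e-05, and -0.95 ± 0.06, adjusted p = 9.94e-06). ADAMTS12, related to ADAMTS7, was at 2.56 and 2.52 FPKM in normal hIECs, 1.55 and 1.85 with PM10, 2.71 and 3.28 in inflamed hIECs and 2.19 and 2.34 with both, and was called in the presence of PM10 (0.28 ± 0.10, adjusted p = 0.0392), a call lost without a library of normal hIECs, without normal with PM10 replicate 1 or without a library of inflamed hIECs with PM10 (adjusted p over the alternatives 0.00699 to 0.198). ADAMTS13, which cleaves von Willebrand factor, was at 1.51 and 2.25 FPKM in normal hIECs, 2.30 and 1.64 with PM10, 0.721 and 0.802 in inflamed hIECs and 0.640 and 0.580 with both, and fell in both comparisons (adjusted p = 0.00605 and 0.00162). ADAMTS16 fell without PM10 (2.25 and 2.78 FPKM against 1.71 and 1.24, adjusted p = 0.0102), a call lost without replicate 2 of either group (adjusted p over the alternatives 0.00853 to 0.0629), and was not called in the presence of PM10 (-0.10 ± 0.12, adjusted p = 0.487). ADAMTS6, the close relative of ADAMTS10, lay between 2.73 and 3.78 FPKM and was called in neither comparison.

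**Figure D4:**
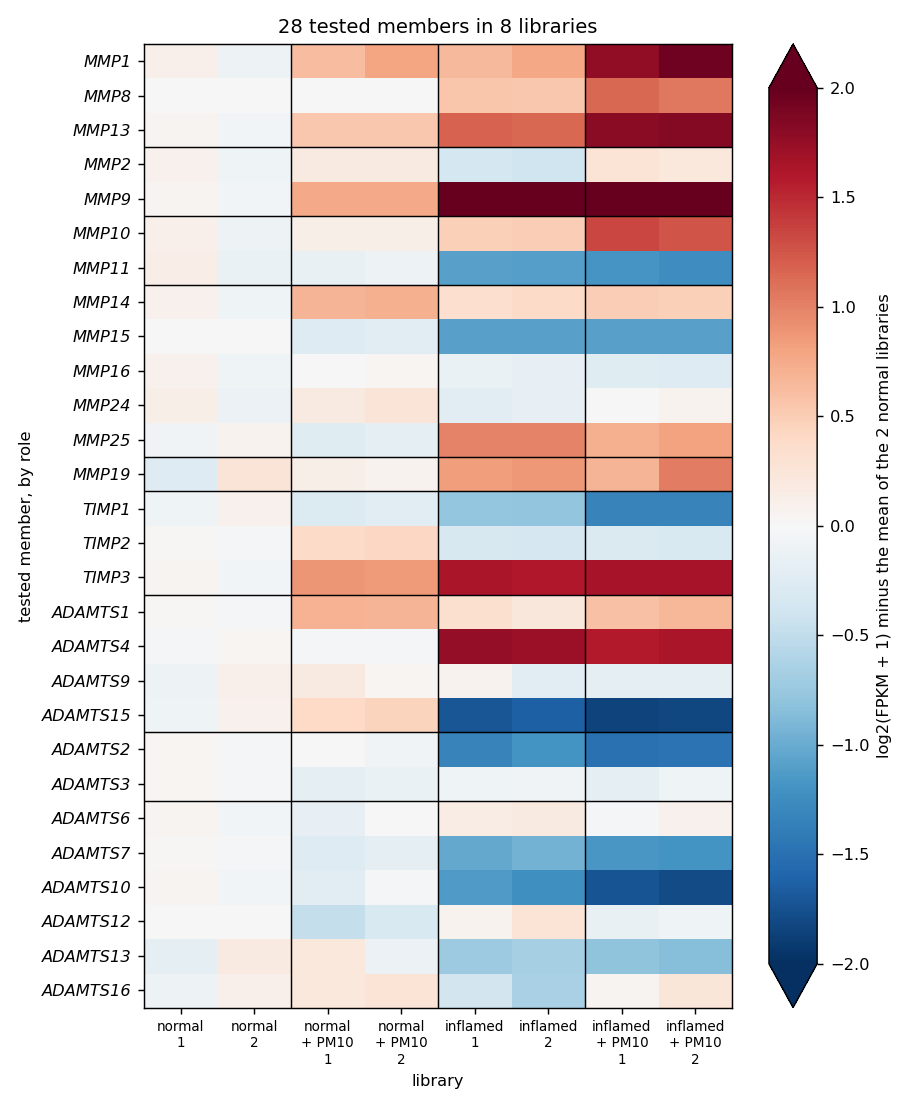
Level of the 28 tested genes (rows, by role) in the 8 libraries (columns) as log2(FPKM + 1) minus the mean of the 2 normal libraries, with the color scale ending at -2 and 2. MMP9 and ADAMTS4 are dark red in the 4 libraries with cytokines, ADAMTS15, ADAMTS2 and ADAMTS10 are blue there, and libraries of a group look alike.

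PM10 was then compared with no PM10 within normal hIECs. MMP1, MMP9, MMP13, MMP14, TIMP2, TIMP3, ADAMTS1 and ADAMTS15 rose, 8 of the 28 genes tested, and no member fell, against 5.51% of all genes that rose and 3.72% that fell. None was past 2-fold (background 0.12% higher and 0.225% lower). These calls rest on the spread pooled over all 8 libraries, since limma fitted to these 2 groups alone called no member and 23 of all genes. In that fit 11 members, and 3169 of all 14206 genes, had an unadjusted p under 0.05. The split depended on the scaling between libraries, with 7 higher and 2 lower after median centring and 7 and 3 after quantile normalization. TIMP3 had the largest difference (0.87 ± 0.05, adjusted p = 0.000404), from 16.7 and 15.4 FPKM to 30.4 and 29.9. MMP9 rose by 0.76 ± 0.05 (adjusted p = 0.000800), MMP14 by 0.70 ± 0.06 (adjusted p = 0.00179), MMP13 by 0.54 ± 0.06 (adjusted p = 0.00317) and TIMP2 by 0.40 ± 0.04 (adjusted p = 0.00312), each with all libraries with PM10 above those without. ADAMTS1, at 5.64 and 5.52 FPKM with PM10, rose by 0.69 ± 0.07 (adjusted p = 0.00304). MMP1 rose by 0.70 ± 0.11 (adjusted p = 0.0131), a call lost without normal replicate 2 or either library with PM10 (adjusted p over the alternatives 0.0100 to 0.112). The call of ADAMTS15 (0.42 ± 0.09, adjusted p = 0.0344) was lost under 12 of 18 alternatives, among them every library left out except normal replicate 2 (0.0250 to 0.149). TIMP1 was lower by 0.24 (SE 0.06) without a call (adjusted p = 0.0534), and MMP10 (adjusted p = 0.316) and MMP2 (adjusted p = 0.126) were not called.

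Within inflamed hIECs, 8 members rose with PM10 and 2 fell, against 6.22% and 9.02% of all genes. MMP1, MMP2, MMP8, MMP9, MMP10, MMP13, ADAMTS1 and ADAMTS16 rose, and TIMP1 and ADAMTS10 fell. MMP8 reached 1 FPKM only in the libraries of inflamed hIECs with PM10, so it had to be higher there, and the 8 include it. Only MMP1 was past 2-fold (background 0.246% higher and 0.422% lower), at 1.15 ± 0.11 (adjusted p = 0.00120), from 2.54 and 2.89 to 6.77 and 7.72 FPKM. MMP10 rose by 0.81 ± 0.07 (adjusted p = 0.00109), MMP13 by 0.66 ± 0.06 (adjusted p = 0.000793), MMP2 by 0.62 ± 0.07 (adjusted p = 0.00170) and MMP9 by 0.38 ± 0.05 (adjusted p = 0.00460). These 4 were above all libraries of inflamed hIECs without PM10. TIMP1 fell by 0.55 (SE 0.06, adjusted p = 0.00225) and ADAMTS10 by 0.58 (SE 0.08, adjusted p = 0.00534), whereas TIMP2 (adjusted p = 0.700), TIMP3 (adjusted p = 0.672) and MMP14 (adjusted p = 0.193) were not called. The calls of 3 genes depended on single libraries. MMP8 (adjusted p = 0.0114) was not called without either library of inflamed hIECs or without inflamed with PM10 replicate 1 (0.00252 to 0.0728 over the alternatives), and ADAMTS1 (0.35 ± 0.07, adjusted p = 0.0172) without any of the 4 libraries compared (0.0124 to 0.105). ADAMTS16 (0.65 ± 0.12, adjusted p = 0.0154) was not called without replicate 2 of either group (0.0128 to 0.0942). MMP1, MMP9, MMP13 and ADAMTS1 were called in both PM10 comparisons, which share no library, all 4 in the same direction, and of all genes tested 433 were called in both and 353 in the same direction.

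**Figure D5:**
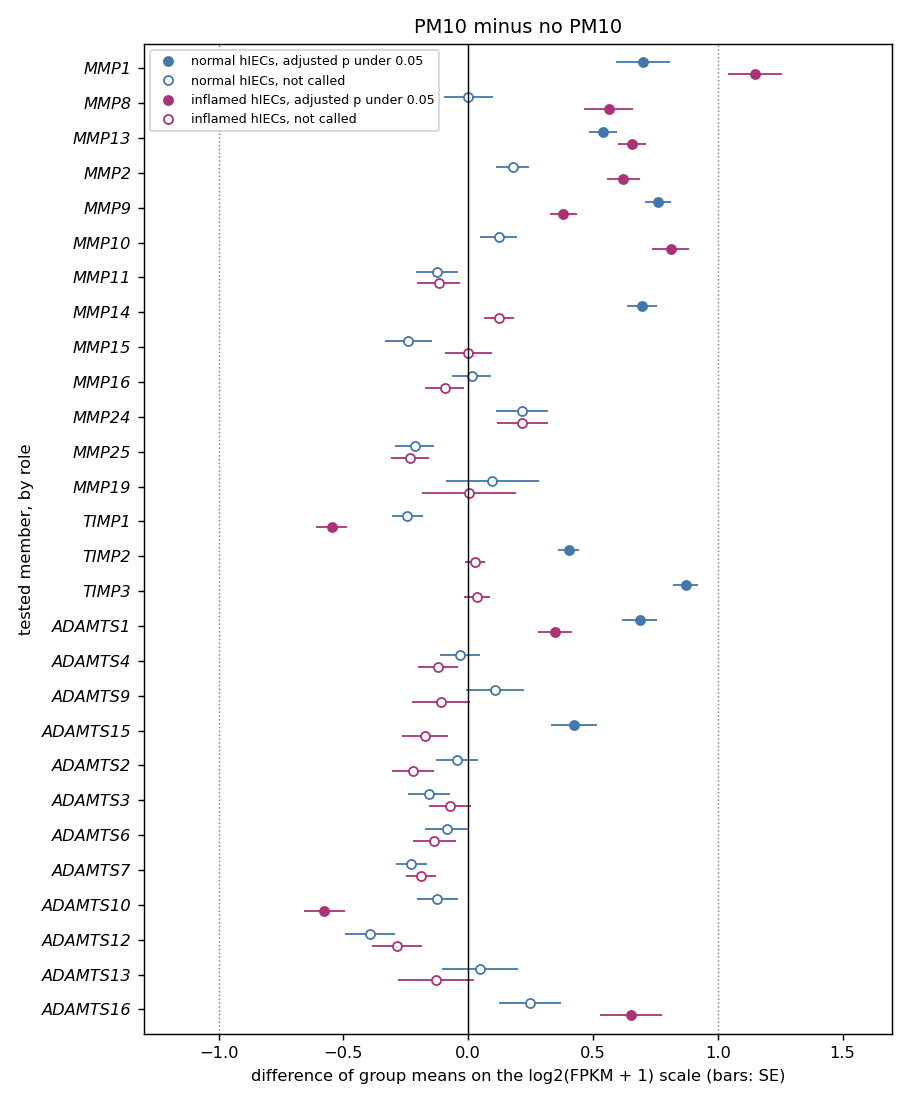
Difference between libraries with and without PM10 on the log2(FPKM + 1) scale (horizontal axis) for the 28 tested genes, in normal hIECs (blue) and inflamed hIECs (purple), with the SE as bars and filled points for an adjusted p under 0.05. TIMP3 stands at 0.87 in normal and 0.04 in inflamed hIECs, and MMP10 at 0.12 and 0.81.

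Whether the PM10 difference itself differed between inflamed and normal hIECs was tested as an interaction. It was positive for MMP10 and MMP2 and negative for MMP9, MMP14, TIMP2, TIMP3 and ADAMTS15, 7 of 28 genes, against 2.11% positive and 4.48% negative over all genes. After median centring 3 were positive and 4 negative. None was past 2-fold (background 0.451% positive and 0.429% negative). TIMP3 had the largest (-0.83 ± 0.07, adjusted p = 0.00178), and it was called under each of 17 alternatives (adjusted p 0.000916 to 0.0157). The other 6 were each lost without at least 1 library. Leaving out either library of normal hIECs with PM10, of inflamed hIECs or of inflamed hIECs with PM10 left 1 or 2 of the 7 calls, and leaving out a normal library left 7 or 8 calls. MMP10 had an interaction of 0.69 ± 0.11 (adjusted p = 0.0134, range 0.00364 to 0.0615), MMP2 of 0.44 ± 0.09 (adjusted p = 0.0366, range 0.00787 to 0.124), MMP14 of -0.57 ± 0.08 (adjusted p = 0.0112, range 0.00281 to 0.0564) and TIMP2 of -0.38 ± 0.06 (adjusted p = 0.0140, range 0.00708 to 0.0693). ADAMTS15 had reached 1 FPKM without cytokines alone and lay near the lowest values of a library with them, where little change with PM10 could be seen, so its negative interaction was largely set beforehand.

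Genes that act with these proteases were counted in lists, with up to 3 genes named for each from those with the largest called differences between inflamed and normal hIECs. Beside the counts below stand the 25.9% of all genes that rose and the 30.3% that fell under cytokines without PM10, and nothing particular to a list is read from them. Of the plasminogen system, whose plasmin activates proMMPs, 9 of 11 genes were tested, and 6 rose and 2 fell under cytokines without PM10, with PLG and SERPINF2 listed at 0. PLAUR, the urokinase receptor, was at 19.3 and 19.4 FPKM in normal hIECs and 49.5 and 47.9 in inflamed hIECs (1.29 ± 0.05, adjusted p = 1.32e-06). SERPINB2, a serine protease inhibitor of the same system, fell (-1.05 ± 0.08). Of 14 tested genes among other MMP inhibitors, inducers and activators, 7 rose and 6 fell. TFPI2, a matrix-bound protease inhibitor, rose (2.40 ± 0.11), and the testicans SPOCK1 (-2.24 ± 0.06) and SPOCK3 (-2.23 ± 0.08) fell.

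Of the ADAMTS-like glycoproteins, which resemble ADAMTS proteins but lack the protease domain, all 5 tested of 7 rose, among them PAPLN (1.22 ± 0.11), ADAMTSL3 and THSD4 (0.47 ± 0.10). However, ADAMTSL3, ADAMTSL5 and THSD4 reached 1 FPKM in libraries with cytokines alone, so they had to differ. ADAMTSL3 was listed at 0 in the 4 libraries without cytokines and at 1.08 and 1.43 FPKM in inflamed hIECs. Of 14 membrane ADAM proteases, 7 were tested and 5 rose, with ADAM12 (0.74 ± 0.05), ADAM9 (0.67 ± 0.08) and ADAM10 (0.41 ± 0.07) the most. Among 10 tested secreted matrix proteases of other families, 2 rose and 5 fell. CTSS, the elastin-cleaving cathepsin S, was listed at 0 without cytokines and at 12.3 and 12.6 FPKM in inflamed hIECs. HTRA1 fell (-2.12 ± 0.07), and PAPPA2 was listed at 0 in the libraries with cytokines. CTSS thus reached 1 FPKM with cytokines alone and PAPPA2 without them alone, so both had to differ.

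Of 19 tested matrix substrates, 11 rose and 7 fell. COMP reached 1 FPKM with cytokines alone, and ACAN, BCAN and COL2A1 without them alone, so these had to differ. Tenascin C (TNC) rose by 2.63 ± 0.05, and elastin (ELN) fell from 38.4 and 51.6 to 3.80 and 4.05 FPKM (-3.21 ± 0.14, adjusted p = 1.67e-06). Of the 7 AP-1 subunits, 4 rose and 2 fell under cytokines, and 1 rose and 3 fell with PM10 in inflamed hIECs (background 6.22% and 9.02%). FOSL1 was at 1.14 and 1.64 FPKM in normal hIECs, 6.75 and 8.03 in inflamed hIECs and 19.01 and 19.1 with both. FOS was at 29.6 and 28.4 FPKM in inflamed hIECs and at 4.999 and 4.73 with both, so the 2 moved in opposite directions with PM10 there (1.26, adjusted p = 0.00212, against -2.35, adjusted p = 9.00e-05), and FOSL2 rose by 1.03 ± 0.08 under cytokines. Of 12 ETS and other regulators of MMP genes, 7 rose and 3 fell, among them NFKB1 (1.84 ± 0.06) and RUNX2 (1.12 ± 0.29).

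The members not tested were ADAMTS5, ADAMTS14, ADAMTS17, MMP17, MMP23B, MMP28 and TIMP4. Of these, MMP17 and MMP28 were above 0 in the 4 libraries without cytokines and listed at 0 in those with cytokines, and ADAMTS17 was above 0 in normal hIECs alone, where it was at most 0.217 FPKM. MMP23B has a near-identical copy, MMP23A, so its values are uncertain. Listed at 0 in every library were MMP3, MMP7, MMP12, MMP20, MMP21, MMP26, MMP27, ADAMTS8, ADAMTS18, ADAMTS19 and ADAMTS20. They include MMP7, a matrilysin, and MMP12, the elastase of macrophages.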

How the data were processed

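Gene expression was measured by RNA-seq in 8 libraries of H9-derived hIECs. The authors selected poly-A RNA, kept no strand information, trimmed the reads (Cutadapt), aligned them to hg38 (HISAT2) and estimated expression with StringTie. The values the authors deposited are FPKM, 1 per gene and library, and were not scaled further between libraries. The annotation release is not given in the sources used here. All 46 genes matched GENCODE release 44, which gave positions and overlaps.

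Genes had to reach 1 FPKM in 2 or more libraries, and the log2(FPKM + 1) values of these 14206 were fitted with limma 3.58.1 (R 4.3.3, trend of the variance on the mean) over all 8 libraries, with Benjamini-Hochberg adjustment within each of 5 comparisons. This scale understates changes of weak genes, and FPKM gives no counting error. The fit was tested on simulated data for the comparison of cytokines without PM10, where it called 183 of 200 genes changed by 1 on the log2 scale and 12 unchanged genes among 14206. Every tested gene of the 3 families is named, and for the other lists the 3 called genes with the largest change under cytokines, some of which are not reported here. The genes, lists and tests were chosen with earlier results of these data known. Alternatives covered pseudocounts of 0.1 and 0.5, filters, scaling, the groups and genes fitted, the trend, the replicate block and each library left out. Figures used Python 3.11.15 and matplotlib 3.10.9.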

Additional observations from a re-analysis of the deposited data

Results flagged for a closer look

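For 7 genes the PM10 difference was called as differing between inflamed and normal hIECs. The test was limma's interaction term on the log2(FPKM + 1) scale, with adjustment over all genes. The interaction was 0.69 for MMP10 (SE 0.11, adjusted p = 0.0134) and 0.44 for MMP2 (SE 0.09, adjusted p = 0.0366), both with the larger rise in inflamed hIECs. It was -0.83 for TIMP3 (SE 0.07, adjusted p = 0.00178), -0.57 for MMP14 (SE 0.08, adjusted p = 0.0112), -0.38 for MMP9 (SE 0.07, adjusted p = 0.0298) and -0.38 for TIMP2 (SE 0.06, adjusted p = 0.0140). Each of these genes had the larger rise in normal hIECs on this scale. In FPKM, the MMP9 mean rose more in inflamed hIECs (195 to 255) than in normal hIECs (5.67 to 10.3). For ADAMTS15 the interaction was -0.59 (SE 0.13, adjusted p = 0.0412). This gene, however, reached 1 FPKM without cytokines alone and was at 0.220 to 0.429 FPKM with them, near the lowest values a library holds. Little change with PM10 could therefore be seen there, and the term was largely set beforehand. TIMP3 was called under all 17 alternatives, and each of the other 6 was lost without at least 1 library.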

How the results depend on the processing

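Over all alternatives, the counts of members called under cytokines, before the 2-fold criterion, stayed within 1.5 times those given, and no called difference of an MMP, TIMP or ADAMTS gene changed sign. Genes of the other lists were not refitted. Of 2477 values of these genes under an alternative, 2299 kept their direction and side of the threshold, 92 lost a call, 31 gained one, and 55 changed sign without a call on either side. With the groups compared as the only ones in the fit, limma called 0 members for PM10 in normal hIECs. There 11 members, and 3169 of all 14206 genes, had an unadjusted p under 0.05. With a pseudocount of 0.1, the members called and past 2-fold numbered 1 for PM10 in normal hIECs, 15 for cytokines without PM10 and 1 for the interaction. Leaving out each library in turn gave 1 to 8 members called for the interaction, 1 without normal with PM10 replicate 2, inflamed replicate 2 or inflamed with PM10 replicate 1, and 2 without the other library of those groups. In each of these fits 1 library stands for its group and is assumed to vary like the others. Why calls were lost in some of these fits and not in others was not tested. Same-numbered libraries deviated together little (correlations of deviations from the group means between -0.0015 and 0.079), and the main fit did not pair them. With 2 libraries a group, these correlations cannot exclude that same-numbered libraries share an origin. With the replicate block, 9 members were called for PM10 in normal hIECs, 22 for cytokines without PM10, 10 for PM10 in inflamed hIECs, 21 for cytokines with PM10 and 7 for the interaction. Over all genes, the share of calls that were higher went from 59.7% to 42.9% after median centring and 49.8% after quantile normalization for PM10 in normal hIECs, and from 32.02% to 45.7% and 46.6% for the interaction. FPKM near 0.2 sit at the lowest value a library holds, so differences there were not detectable.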
